A study of Mus musculus with 44 samples.

Results

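Phosphatidylcholine is the main membrane phospholipid of liver cells and the phospholipid that coats the lipoproteins they secrete, and choline is its head group. Its synthesis and turnover are followed here through 10 genes, chosen by name because 2 of the study's diets lack choline: Pemt, Chka, Chkb, Pcyt1a, Pcyt2, Cept1, Chpt1, Gpcpd1, Lpcat3 and Slc44a1. All 10 were found among the 35249 genes of the count table, and all 10 passed the minimum on counts. RNA from whole liver was sequenced in 44 libraries of 3 genotypes and 3 diets. Wild type mice (WT), Ripk3 knockouts (Ripk3KO, Ripk3-/-) and Mlkl knockouts (MlklKO, Mlkl-/-) were 2 months old when feeding began and stayed on their diet for 6 months. The diets were normal chow (control) and 2 diets without choline, of which CD-LFD is low and CD-HFD high in fat. RIPK3 and MLKL are a kinase and its target, which carry out the lytic cell death called necroptosis. Each WT group had 6 libraries. Ripk3KO had 6 on control, 3 on CD-LFD and 4 on CD-HFD, and MlklKO had 6, 4 and 3. The labels give no sex, strain background, litter or time of collection, and do not say that each library is a separate mouse, so the p-values measure only the spread between these libraries. No group received a high-fat or low-fat diet with choline, so that the lack of choline and the other differences between each diet and chow cannot be told apart.

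Liver makes phosphatidylcholine by 2 routes. In the cytidine diphosphate-choline route, choline enters the cell through carriers such as Slc44a1, is phosphorylated by choline kinase (Chka and Chkb), is then activated by the rate-limiting enzyme Pcyt1a and is joined to diacylglycerol by Chpt1 or Cept1. In the other route Pcyt2 activates phosphoethanolamine, Cept1 can make phosphatidylethanolamine from it, and Pemt, which is most active in liver, methylates that lipid 3 times to phosphatidylcholine. Gpcpd1 hydrolyses glycerophosphocholine, a breakdown product of phosphatidylcholine, and Lpcat3 puts polyunsaturated acyl chains back into lysophosphatidylcholine.

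The libraries held 2476268 to 12471844 counts, apart from WT CD-LFD replicate 3 with 88204703. Levels are given as CPM, counts scaled to library size and by the trimmed mean of M values, with mean ± SD over libraries, and a member is described as called, risen or fallen when the edgeR quasi-likelihood test gave a Benjamini-Hochberg adjusted p under 0.05 over 14862 genes. Ripk3 was at 0 or 1 count in all Ripk3KO libraries on the choline-deficient diets and reached 9 counts (1.01 CPM of the total) in the library labelled Ripk3KO control replicate 5, near the WT control median of 1.08 (0.439 to 4.78), so that this value goes against its label. Mlkl was counted in every MlklKO library. On control it was at 1.24 to 2.61 CPM of the total, which overlaps the WT range of 2.02 to 5.5. On CD-LFD it was at 2.83 to 3.93, against 10.3 to 17.9 in WT. The library labelled MlklKO CD-HFD replicate 1 held 14.4 CPM of the total, close to the WT minimum of 17.2 on that diet, which goes against its label too. Without these 2 libraries 7 of the 51 calls of members described below were lost, all with little change in size: Cept1 and Slc44a1 for CD-LFD against control in Ripk3KO (adjusted p 0.0802 and 0.0548), Pcyt2 for CD-HFD against CD-LFD in Ripk3KO (0.0563) and against control in MlklKO (0.0629), Lpcat3 and Chka for MlklKO against WT on control and CD-LFD (0.0575 and 0.0508) and the interaction of Pemt in MlklKO (0.0577). Libraries also differed in the ratio of the clock genes Arntl (Bmal1) to Dbp, which cycle over the day in opposite phase. The log2 ratio split at a gap of 1.006 into 33 libraries of a larger and 11 of a smaller clock phase. The smaller phase held 4 of 6 WT control libraries, all 6 of WT CD-LFD and 1 of 6 of WT CD-HFD, and no knockout library. The hepatocyte markers were present in all libraries: the summed level of the 9 tested of 10 markers had a median of 129740.2 CPM in WT control, 94068 in WT CD-LFD and 69032 in WT CD-HFD.

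The promoters of members that the results turn on are shown first, as the 250 bases before the RefSeq start (GRCm38.p6, a different build from the authors'), 5′ to 3′ on the gene's strand. Chka is shown because its level went with the clock-gene ratio, Chpt1 because it fell on CD-HFD in every genotype, and Pemt because it rose on CD-LFD in MlklKO. The Chka window is chr19:3851523-3851772 (plus strand), that of Chpt1 chr10:88503971-88504220 (minus strand) and that of the more upstream Pemt start chr11:60040189-60040438 (minus strand). Capitals mark the GC box GGGCGG and the CCAAT box CCAAT, on either strand; these 2 motifs were chosen after the windows had been read.
Chka: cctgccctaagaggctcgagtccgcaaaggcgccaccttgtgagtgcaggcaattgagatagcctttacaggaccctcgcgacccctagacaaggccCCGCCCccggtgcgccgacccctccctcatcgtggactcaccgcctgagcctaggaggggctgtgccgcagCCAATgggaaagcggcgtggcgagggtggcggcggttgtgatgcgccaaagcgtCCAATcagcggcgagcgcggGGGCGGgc
Chpt1: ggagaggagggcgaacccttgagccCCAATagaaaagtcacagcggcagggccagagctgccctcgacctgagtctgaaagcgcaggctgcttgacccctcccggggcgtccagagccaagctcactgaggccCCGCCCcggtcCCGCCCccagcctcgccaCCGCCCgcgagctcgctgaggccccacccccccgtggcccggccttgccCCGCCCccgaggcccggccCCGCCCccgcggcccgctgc
Pemt: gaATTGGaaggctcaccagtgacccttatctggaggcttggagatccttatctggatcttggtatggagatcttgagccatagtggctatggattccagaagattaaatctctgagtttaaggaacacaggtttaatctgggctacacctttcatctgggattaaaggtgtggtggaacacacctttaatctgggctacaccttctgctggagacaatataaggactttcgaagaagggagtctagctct
The Chka window held 2 GC boxes and 2 CCAAT boxes in a sequence with 68.0% G or C. The Chpt1 window held 5 GC boxes and 1 CCAAT box, with 75.6% G or C. The Pemt window held no GC box and 1 CCAAT box, with 44.8% G or C, against a median of 52.4% over all windows. Windows were found for 8 of the 10 members, which excludes Pcyt2 and Gpcpd1. Of the 32851 windows of all genes, 32.7% held a GC box, 33.8% a CCAAT box, 6.02% the E-box CACGTG of clock factors, 0.694% the D-box TTATGCAA, 0.113% its palindrome TTACGTAA and 14% the nuclear receptor motif AGGTCA. None of the last 4 letter runs stood in any of the members' 14 windows, on either strand, which says only that these letters are not in these 250 bases.

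Compared per kilobase of exon sequence, Pcyt2 and Pemt stood highest of the 10 members. Exon sequence here is the union of all annotated exons, 2104 bases in Pemt and 12024 in Chka. It is not the length of the transcripts made in liver, so the order may depend in part on the annotation. In WT control livers Pcyt2 was at 262 ± 131 CPM per kilobase (n = 6) and Pemt at 143 ± 29.1. Lpcat3 followed at 30.6 ± 5.98, Chpt1 at 22.9 ± 8.32, Cept1 at 17.2 ± 1.48, Gpcpd1 at 13.1 ± 5.13, Chka at 12.1 ± 9.33, Pcyt1a at 9.90 ± 6.44 and Slc44a1 at 6.50 ± 2.06. Pcyt2 and Pemt, and each neighbouring pair from Lpcat3 to Slc44a1, differed by less than the larger SD of the pair. Pemt stood above Lpcat3, and Slc44a1 above Chkb, by more than that. Chkb was lowest at 0.745 ± 0.471. It had 4 to 123 counts per library, and its exons overlap those of the read-through gene Gm44502 on the same strand and of C730034F03Rik on the other, so that reads of Chkb may be divided between genes. Exons of Chka, Pcyt1a, Cept1, Chpt1, Lpcat3 and Slc44a1 also overlap genes on the opposite strand. The library kit keeps strand, but the strand setting of the counting is not given in the sources used here.

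In WT livers some genes of each route had lower RNA on the high-fat choline-deficient diet. Others did not, and the weakly expressed Pcyt1b of the choline route was higher, as given below. Of the 10 members, 8 were lower on CD-HFD than on control and 0 higher, against 47.7% of all tested genes called, 24.1% lower and 23.5% higher. The median log2 change of the members was -0.70, against -0.07 for all genes. Chpt1, the phosphotransferase of the last step of the choline route, fell from a lowest, median and highest value of 104, 208 and 279.8 CPM on control to 48.3, 84.3 and 95.2 on CD-HFD. The 2 groups did not overlap, and Chpt1 was 2.43-fold lower (log2 change -1.28, SE 0.197, adjusted p 9.71e-07). In whole liver, fewer hepatocytes and less RNA per hepatocyte cannot be told apart: of the 9 hepatocyte markers tested 8 were also lower and 1 higher in this comparison, with a median log2 change of -0.86, and all 10 macrophage markers were higher, from a median sum of 167 CPM (144 to 189) to 1539 CPM (1220 to 3082). Their part in the changes of the members was not tested.

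Of the other genes of the choline route, the carrier Slc44a1 went from 30.7, 42.7 and 71.0 CPM (lowest, median and highest) to 20.9, 26.6 and 37.0 (log2 change -0.76, SE 0.161, adjusted p 0.000147). The groups overlapped in their ranges, with the control libraries mostly the higher. Pcyt1a, the rate-limiting step, went from 11.9, 94.4 and 120.5 CPM to 15.6, 30 and 47.5 (log2 change -1.19, SE 0.378, adjusted p 0.00832). In Pcyt1a 2 of the 6 control libraries lay below every CD-HFD library and the other 4 above all of them. Without those 2, WT control replicates 5 and 6, the change was -1.68 with an adjusted p of 2.32e-05, and with only the compared groups in the fit the adjusted p was 0.0573. Chka, the inducible choline kinase, had a log2 change of -1.09 (SE 0.386, adjusted p 0.018). Its direction turned with clock phase, as described below with its values. Cept1, which serves both routes, went from 48.6, 52.9 and 62.1 CPM to 35.8, 41.1 and 51.6 (log2 change -0.34, SE 0.105, adjusted p 0.00766). The call for Cept1 was lost with the clock ratio as a covariate (-0.27, adjusted p 0.0695), within the larger phase (-0.20, adjusted p 0.302), without the count filter (-0.27, adjusted p 0.174) and with only the compared groups in the fit (-0.31, adjusted p 0.0801). Chkb had a log2 change of 0.36 (SE 0.371, adjusted p 0.439).

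In the ethanolamine route, Pcyt2 went from 738, 838 and 2109 CPM to 353, 545 and 633, with no overlap between the groups (log2 change -1.11, SE 0.219, adjusted p 5.36e-05). Part of this size came from 2 control libraries: WT control replicates 5 and 6 held 1570.2 and 2109 CPM against 738 to 872 in the other 4, and without them the change in Pcyt2 was -0.58 (adjusted p 0.00937). Within the larger clock phase it was -0.48 with an adjusted p of 0.103. Pemt went from 220.4, 289 and 397 CPM to 185, 214 and 317 (log2 change -0.38, SE 0.146, adjusted p 0.03). The Pemt groups overlapped widely, and its call was lost in 6 of 12 fits that each left out 1 library (WT control replicate 2 or 4, or WT CD-HFD replicate 1, 2, 3 or 6), with an adjusted p of up to 0.112. With the compared groups alone the adjusted p of Pemt was 0.151, and with DESeq2 0.0593. Gpcpd1, which breaks down glycerophosphocholine, went from 36.5, 106 and 135 CPM to 37.7, 63.3 and 74.9 (log2 change -0.65, SE 0.24, adjusted p 0.0232). The call for Gpcpd1 was lost without WT control replicate 2, 4 or 6 or WT CD-HFD replicate 6 (adjusted p up to 0.0706), and with only the compared groups (adjusted p 0.0772). Lpcat3 missed the threshold, with a log2 change of -0.39 (SE 0.184, adjusted p 0.0801).

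The falls are relative to the bulk of genes. With library size alone in place of the trimmed mean, the median of all genes in this comparison moved from -0.07 to 0.427, 2 members (Pcyt2 and Chpt1) stayed called, and Pemt and Cept1 turned to 0.12 and 0.15. Chpt1 was then at -0.77 with an adjusted p of 0.000421. Chpt1 stayed called in every one of the 12 fits that left out 1 library (adjusted p 7.3e-08 to 9.08e-06).

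**Figure D1:**
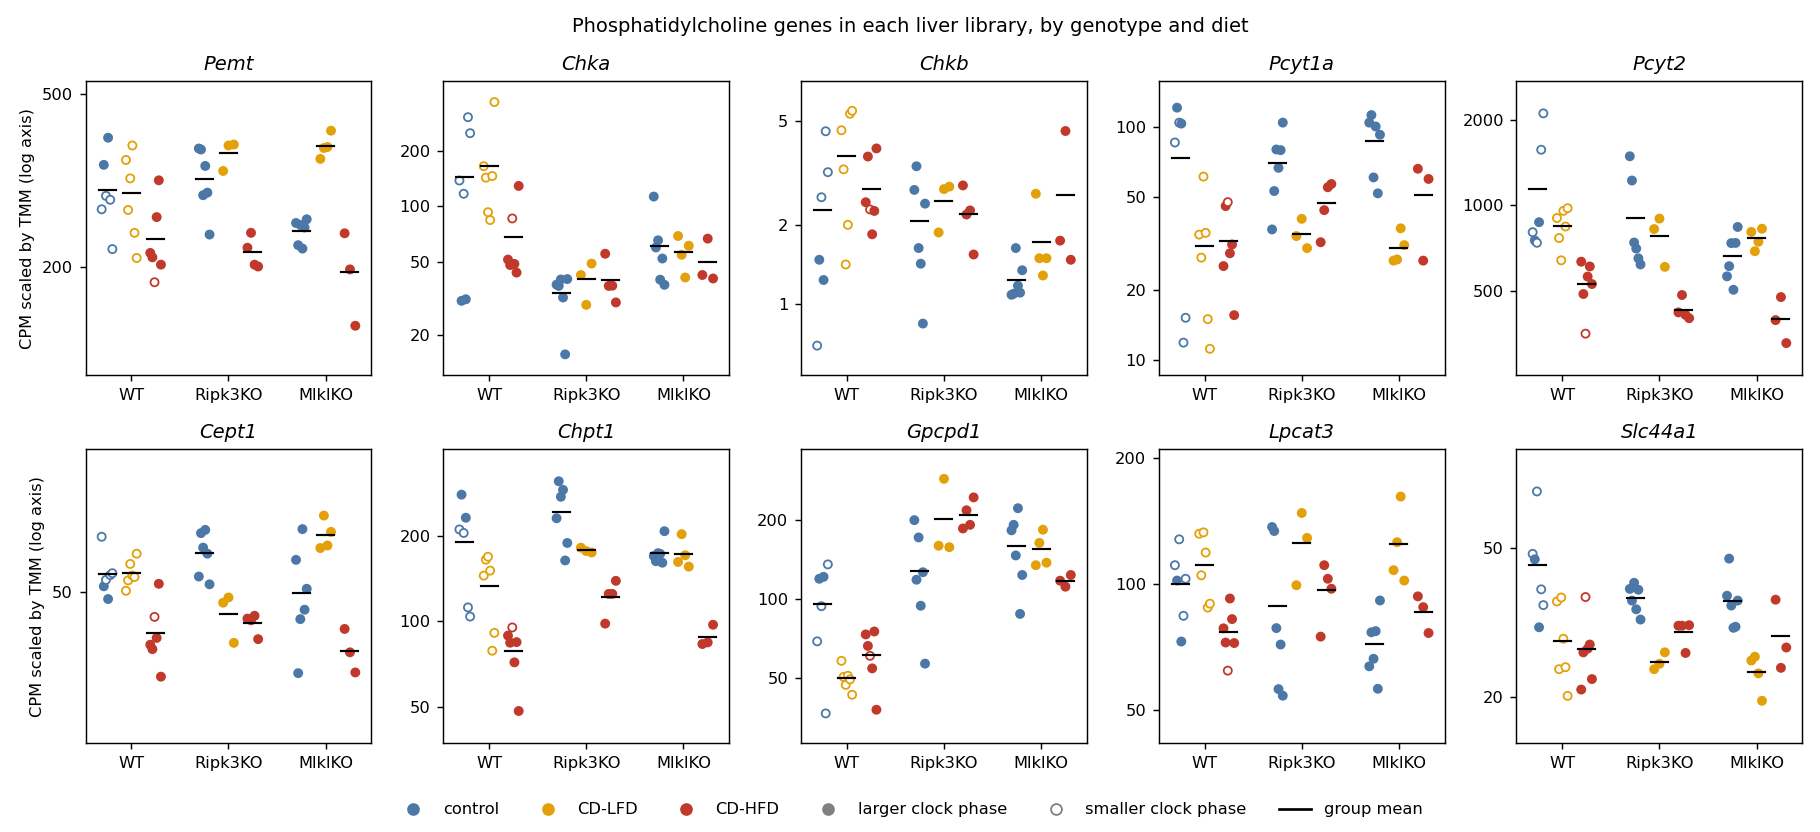
CPM scaled by the trimmed mean of M values (log axis) of the 10 members in each of the 44 libraries, by genotype (horizontal axis) and diet (colour); open points are libraries of the smaller clock phase and bars are group means. In Chpt1 all 6 WT CD-HFD points lie below all 6 WT control points, in Gpcpd1 the knockout points on CD-LFD and CD-HFD lie above all WT points of the same diet, and in Chka the open points lie at 84.3 to 367.

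On the low-fat diet without choline fewer members were called in WT. Of the 10 members 4 were lower than on control and 0 higher, against 27.7% of all genes called and 14% lower. Gpcpd1 was at 43, 49.8 and 57.9 CPM on CD-LFD (log2 change -0.95, SE 0.242, adjusted p 0.00294). Only the lowest control value of Gpcpd1, 36.5 CPM in replicate 5, did not lie above that narrow range. On this diet 5 of the 9 hepatocyte markers were lower and 7 of 10 macrophage markers higher, and their part was not tested. Slc44a1 was at 20.1, 26.3 and 36.9 CPM (log2 change -0.68, SE 0.161, adjusted p 0.00147), close to its CD-HFD values. Pcyt1a was at 11.2, 31.0 and 61.1 CPM (log2 change -1.25, SE 0.378, adjusted p 0.0117), and the adjusted p was 0.131 with only the compared groups in the fit. Chpt1 was at 78.8, 148 and 169 CPM, between the levels of the other 2 diets (log2 change -0.52, SE 0.195, adjusted p 0.0415). The call for Chpt1 was lost in 6 of 12 fits without 1 library (WT control replicate 1, 2, 3 or 4, or WT CD-LFD replicate 5 or 6; adjusted p up to 0.163) and with library size alone (-0.23, adjusted p 0.342). The values of Pemt (-0.03), Cept1 (0.00), Lpcat3 (0.15) and Chka (0.20) were near 0 beside SEs of 0.146, 0.105, 0.184 and 0.381. Chkb and Pcyt2 had log2 changes of 0.76 (SE 0.368, adjusted p 0.12) and -0.43 (SE 0.217, adjusted p 0.136).

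The direct comparison of the 2 choline-deficient diets in WT gave 5 members lower on CD-HFD and 0 higher, against 21.1% of all genes called and 7.4% lower. In the same comparison all 10 macrophage markers (median log2 change 2.06) and all 6 cholangiocyte markers were higher and 3 of 9 hepatocyte markers lower, and their part was not tested. Pcyt2 fell from 640.1, 872 and 977 CPM on CD-LFD with no overlap (log2 change -0.68, SE 0.217, adjusted p 0.0199), and its call was lost without WT CD-HFD replicate 3 (adjusted p 0.0635). Chpt1 differed by -0.76 (SE 0.195, adjusted p 0.00367), Cept1 by -0.34 (SE 0.104, adjusted p 0.0145) and Lpcat3 by -0.54 (SE 0.183, adjusted p 0.0306). Lpcat3 was at 87.9, 112 and 133 CPM on CD-LFD, and its CD-HFD values of 62.1, 75.4 and 92.4 gave ranges that overlapped only at their edges. Its call was lost without WT CD-LFD replicate 1, 3 or 4 or WT CD-HFD replicate 2, 3 or 6 (adjusted p up to 0.0833). Chka differed by -1.29 (SE 0.386, adjusted p 0.0123), a call lost without WT CD-LFD replicate 6 (adjusted p 0.084). All 6 CD-LFD libraries and 1 of the 6 CD-HFD libraries were of the smaller clock phase. With the clock ratio as a covariate 2 members were called, Chpt1 (-0.93, adjusted p 0.00202) and Pemt (-0.59, adjusted p 0.00551), and the calls of Chka (-0.12), Pcyt2 (-0.57, adjusted p 0.134), Cept1 (-0.27, adjusted p 0.116) and Lpcat3 (-0.48, adjusted p 0.136) were lost. Pcyt1a (0.06), Slc44a1 (-0.08), Gpcpd1 (0.30), Pemt (-0.35, adjusted p 0.0811) and Chkb (-0.40) were not called.

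On CD-HFD Chpt1, Pcyt2 and Cept1 fell in the knockouts as well. On CD-HFD against control 5 members were called in Ripk3KO (4 lower and 1 higher, background 46.3%) and 4 in MlklKO (3 lower and 1 higher, background 45.2%). Both counts lie near the background. The share of all genes called in all 3 genotypes was not counted, so a count of members is not read against it. These 3 genes, the phosphotransferases Chpt1 and Cept1 and the activating enzyme of the ethanolamine route, were lower in all 3 genotypes. Of the hepatocyte markers 8 and 6 of 9 were lower there too, and all 10 macrophage markers were higher in both knockouts (median sums of 1937 and 2275 CPM, against 147 and 135 on control); their part was not tested. Chpt1 was at 164, 253 and 312 CPM (lowest, median and highest) in Ripk3KO control and at 98.2, 125, 125 and 139 CPM on CD-HFD (log2 change -1.0, SE 0.223, adjusted p 0.000302). In MlklKO it went from 161, 172 and 208 CPM to 83.2, 84.3 and 97.3 (log2 change -0.99, SE 0.249, adjusted p 0.00121). Neither pair of Chpt1 groups overlapped, as in WT, and both falls stayed called in every fit that left out 1 library. With library size alone the Chpt1 changes were -0.47 and -0.45 with adjusted p of 0.0501 and 0.0914.

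Pcyt2 in Ripk3KO went from 619, 722 and 1489 CPM to 400.2, 411, 419.5 and 483 (log2 change -1.08, SE 0.25, adjusted p 0.000479). In MlklKO it went from 504, 673 and 839 CPM to 327, 394 and 475 (log2 change -0.74, SE 0.274, adjusted p 0.0252). The groups did not overlap in either knockout, but in MlklKO the call for Pcyt2 was lost without CD-HFD replicate 1 or 4 (adjusted p up to 0.116) and with the size factors of DESeq2 in edgeR (adjusted p 0.0529). Scaled by library size alone, Pcyt2 was at -0.55 (adjusted p 0.073) in Ripk3KO and -0.21 (adjusted p 0.557) in MlklKO. Cept1 in Ripk3KO went from 51.5, 58.8 and 63.8 CPM to 41.5, 44.7, 45.0 and 45.5 without overlap (log2 change -0.40, SE 0.117, adjusted p 0.00504). The Ripk3KO call for Cept1 was lost without the count filter (-0.37, adjusted p 0.0828). In MlklKO Cept1 went from 36.3, 48.6 and 64.0 CPM to 36.4, 39.4 and 43.2 (log2 change -0.33, SE 0.13, adjusted p 0.0344). That call was lost without MlklKO control replicate 1 or 4 or CD-HFD replicate 4 (adjusted p up to 0.124). The MlklKO value of Cept1 also missed the threshold with only the compared groups (-0.23, adjusted p 0.313), with the size factors of DESeq2 in edgeR (-0.26, adjusted p 0.0959), without the count filter (-0.35, adjusted p 0.166) and with DESeq2 (-0.26, adjusted p 0.0644). With library size alone Cept1 turned to 0.14 in Ripk3KO and 0.20 in MlklKO, so that its fall too is relative to other genes.

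Of the other 7 members none was called in all 3 genotypes on CD-HFD, and Lpcat3 in none. Pemt was called in Ripk3KO, from 238, 319 and 375 CPM to 201, 203, 222 and 240.2 (log2 change -0.56, SE 0.165, adjusted p 0.00507), and not in MlklKO (-0.32, SE 0.181, adjusted p 0.154). With library size alone the Ripk3KO value for Pemt was -0.03. Gpcpd1 rose in Ripk3KO (log2 change 0.71, SE 0.262, adjusted p 0.0233), the direction opposite to WT, and was at -0.44 (SE 0.296, adjusted p 0.232) in MlklKO. The Ripk3KO call for Gpcpd1 was lost without control replicate 4 or 6 or CD-HFD replicate 5 (adjusted p up to 0.073). Pcyt1a was at -0.57 (SE 0.42) in Ripk3KO and -0.77 (SE 0.469) in MlklKO, and Slc44a1 at -0.30 (SE 0.18) and -0.31 (SE 0.199), all lower as in WT but not called. Chkb was called higher in MlklKO (1.06, SE 0.446, adjusted p 0.0492) from values of 1.74, 4.57 and 1.47 CPM against 1.08, 1.14 and 1.63 on control. The value of Chkb came mostly from replicate 2: without it the change was 0.29 (adjusted p 0.698), and the call was also lost without control replicate 1, 2, 4, 5 or 6. Chka was at 0.24 and -0.29 and Lpcat3 at 0.12 and 0.26 in Ripk3KO and MlklKO, with SEs of 0.434, 0.477, 0.204 and 0.223.

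**Figure D2:**
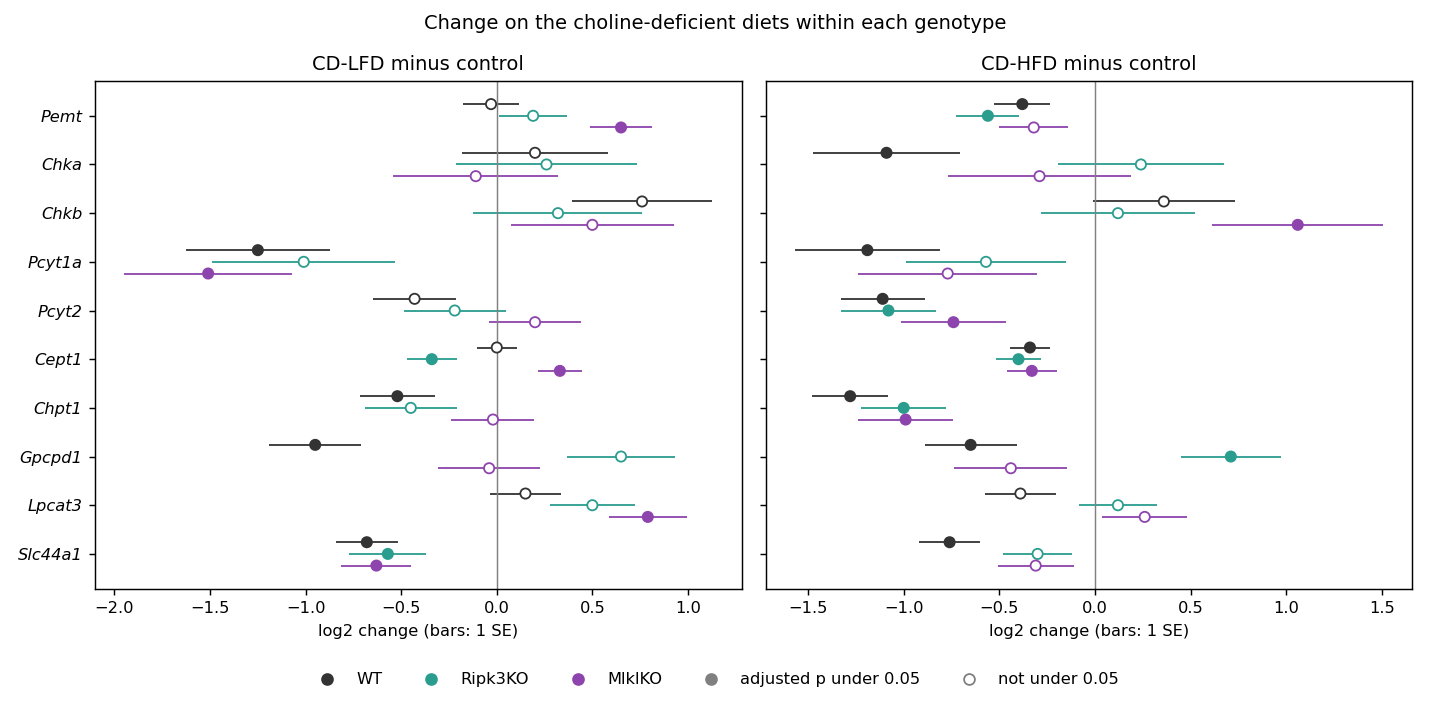
Log2 change ± 1 SE of each member (rows) on CD-LFD (left) and CD-HFD (right) against control within WT, Ripk3KO and MlklKO, with filled points where the adjusted p is under 0.05. On CD-HFD the 3 points of Pcyt2, of Cept1 and of Chpt1 are filled and left of 0; on CD-LFD the 3 points of Slc44a1 are, and Pemt is filled only in MlklKO, at 0.65.

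On CD-LFD against control, 2 members were called in Ripk3KO (24.1% of all genes) and 5 in MlklKO (37.9%). Of the markers of other cells, 6 of 10 macrophage, all 6 cholangiocyte and 6 of 8 stellate cell and fibroblast markers were higher in Ripk3KO, and 3 of 9 hepatocyte markers were lower. In MlklKO 9 of 10 macrophage, 0 of 6 cholangiocyte (median log2 change 0.81) and 5 of 8 stellate cell and fibroblast markers were higher. Endothelial markers had median log2 changes of -0.84 in WT, -0.87 in Ripk3KO and -0.90 in MlklKO. The part of all these markers was not tested. Slc44a1 was lower in all 3 genotypes. In Ripk3KO Slc44a1 was at 32.2, 37.5 and 40.4 CPM on control and 23.7, 24.5 and 26.3 on CD-LFD (log2 change -0.57, SE 0.202, adjusted p 0.0369), and in MlklKO at 30.6, 35.7 and 46.9 and then 25.0, 25.6, 23.1 and 19.5 (log2 change -0.63, SE 0.183, adjusted p 0.00679). Neither pair of Slc44a1 groups overlapped, although in Ripk3KO the call was lost without control replicate 3 or 5 or any 1 of the 3 CD-LFD libraries (adjusted p up to 0.116) and with library size alone (-0.25, adjusted p 0.307). Pcyt1a fell in MlklKO from 51.8, 96.2 and 112 CPM to 26.7, 27.0, 36.7 and 31.1 with no overlap (log2 change -1.51, SE 0.438, adjusted p 0.00662). In Ripk3KO it was at -1.01 (SE 0.479, adjusted p 0.118), from 36.3, 73.0 and 104 CPM to 34, 40.3 and 30.2.

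Pemt, Lpcat3 and Cept1 were higher on CD-LFD than on control in MlklKO. Pemt rose from 221, 249 and 258 CPM to 355, 376, 378 and 412 (log2 change 0.65, SE 0.161, adjusted p 0.00181) and Lpcat3 from 56.2, 71.5 and 91.4 CPM to 108, 126, 162 and 102 (log2 change 0.79, SE 0.203, adjusted p 0.00236). In both genes all 4 CD-LFD libraries lay above all 6 control libraries. Cept1 rose from 36.3, 48.6 and 64.0 CPM to 59.4, 67.5, 60.0 and 63.3 (log2 change 0.33, SE 0.115, adjusted p 0.0237), a call lost without control replicate 2 or CD-LFD replicate 2 (adjusted p up to 0.0774). The call was also lost without the count filter (0.32, adjusted p 0.164) and with only the compared groups in the fit (0.35, adjusted p 0.0694). In Ripk3KO Cept1 went the other way, to 47.9, 48.9 and 40.9 CPM (log2 change -0.34, SE 0.13, adjusted p 0.0476), and that call was lost in 7 of 9 fits without 1 library (control replicate 2, 3, 4 or 5, or any CD-LFD library; adjusted p up to 0.277). The summed hepatocyte markers of MlklKO were at a median of 133411 CPM on CD-LFD (129708 to 136674) and 122187 on control (110605 to 126232), while in WT and Ripk3KO the CD-LFD medians of 94068 and 98707 lay below those of control. Singly, 2 of the 9 hepatocyte markers were lower and 1 higher in MlklKO on CD-LFD than on control (median log2 change -0.05), and 9 of 10 macrophage markers were higher (median 1.24). The part of these in the rise of Pemt, Lpcat3 and Cept1 was not tested.

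Between the 2 choline-deficient diets, 2 members were lower on CD-HFD in Ripk3KO (8.83% of all genes called) and 4 in MlklKO (23.7%). All 10 macrophage markers were higher in both (median log2 changes 2.14 and 2.38), and 1 of 9 hepatocyte markers in Ripk3KO and 4 of 9 in MlklKO were lower; their part was not tested. Pcyt2 was lower in all 3 genotypes, by -0.86 (SE 0.284, adjusted p 0.0491) in Ripk3KO and -0.94 (SE 0.293, adjusted p 0.0159) in MlklKO. With library size alone Pcyt2 was called in none of the 3 genotypes (-0.50 in WT, -0.62 in Ripk3KO and -0.56 in MlklKO, with adjusted p of 0.105, 0.181 and 0.152). The Ripk3KO call for Pcyt2 lay just under the threshold and was lost in 6 of 7 fits (all but the fit without CD-LFD replicate 3; adjusted p up to 0.214), and the MlklKO call was lost without CD-HFD replicate 4 (adjusted p 0.101). Pemt was at 333, 381 and 383 CPM on CD-LFD in Ripk3KO and fell to 201 to 240.2 on CD-HFD (log2 change -0.76, SE 0.191, adjusted p 0.00889). In MlklKO Pemt fell from 355 to 412 CPM to 239.6, 198 and 147 (log2 change -0.96, SE 0.198, adjusted p 0.000381). The Pemt groups did not overlap in either knockout, and both calls also held with library size alone (-0.53 and -0.58). Cept1 (-0.66, SE 0.14, adjusted p 0.00057) and Chpt1 (-0.97, SE 0.263, adjusted p 0.00593) were the other members called in MlklKO, where with library size alone they were at -0.27 and -0.58 with adjusted p of 0.127 and 0.0554.

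Knockout and WT livers were then compared within each diet, which asks how loss of Ripk3 or Mlkl goes with these genes at the same feeding. Necroptosis itself was not measured. The comparisons within a diet share the WT libraries, so the values of the knockouts are set side by side and not combined. Gpcpd1 was higher in both knockouts than in WT on CD-LFD, and in Ripk3KO on CD-HFD. On CD-LFD it was at 43, 49.8 and 57.9 CPM in WT, at 159, 286 and 157 in Ripk3KO and at 134, 163, 183 and 137 in MlklKO. On CD-HFD it was at 37.7, 63.3 and 74.9 in WT, at 185, 217, 191 and 243 in Ripk3KO and at 117, 111 and 123 in MlklKO. No knockout library on either diet fell within the WT range of Gpcpd1. The summed hepatocyte markers on CD-LFD were at 65775 to 112607 CPM in WT, 81038 to 138936 in Ripk3KO and 129708 to 136674 in MlklKO. On CD-HFD they were at 60739.6 to 99481, 67659 to 95943 and 73566 to 97656 CPM in that order. Their part in the differences of Gpcpd1 was not tested.

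On CD-LFD 2 members were called in Ripk3KO (1.1% of all genes) and 2 in MlklKO (2.56%). The log2 difference of Gpcpd1 was 2.01 in Ripk3KO (SE 0.28, adjusted p 3.03e-05, 4.03-fold) and 1.63 in MlklKO (SE 0.263, adjusted p 0.00016, 3.10-fold). Both kept their call in every fit without 1 library, with adjusted p of up to 0.00593 and 0.00126. All WT CD-LFD libraries were of the smaller clock phase and all knockout libraries of the larger, so that on this diet phase and genotype cannot be told apart within a phase. With the clock ratio as a covariate Gpcpd1 was at 1.61 (adjusted p 0.0479) and 1.26 (adjusted p 0.126). On CD-HFD, where 5 of 6 WT libraries were of the same phase as the knockouts, 1 member was called in Ripk3KO (0.377% of all genes) and 0 in MlklKO (0.0%, with 1 member under 0.05 before adjustment and 0 members called by DESeq2). The share of all genes under 0.05 before adjustment was not counted. Gpcpd1 was the member called in Ripk3KO, with a log2 difference of 1.78 (SE 0.262, adjusted p 9.29e-05, 3.43-fold), and 1.74 (adjusted p 0.000352) within the larger clock phase. In MlklKO its difference was 0.94 (SE 0.283, adjusted p 0.568), and 0.126 was the adjusted p within the larger phase.

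On the control diet 1 member was called in Ripk3KO (4.47% of all genes) and 4 in MlklKO (27.1%). Gpcpd1 was at 56.5, 122 and 199 CPM in Ripk3KO and 87.4, 164 and 221 in MlklKO beside 36.5, 106 and 135 in WT. These ranges overlapped, and the difference of Gpcpd1 was 0.41 (SE 0.239, adjusted p 0.344) in Ripk3KO and 0.72 (SE 0.24, adjusted p 0.0215) in MlklKO. The MlklKO call was lost without WT control replicate 1 or 5 or MlklKO control replicate 2 or 4 (adjusted p up to 0.0696). Within the larger phase, where the clock ratio still differed between MlklKO and WT control, the difference was 0.43 (adjusted p 0.413). Pcyt2 was lower in MlklKO than in WT (-0.78, SE 0.218, adjusted p 0.00687), with values of 504 to 839 CPM against 738 to 2109. The difference in Pcyt2 was -0.25 (adjusted p 0.387) without WT control replicates 5 and 6, and the call was lost without replicate 6 alone (-0.51, adjusted p 0.0621). Lpcat3 was also lower in MlklKO (-0.48, SE 0.185, adjusted p 0.0479). Its call was lost in 9 of 12 fits without 1 library (all but those without WT control replicate 4 or 5 or MlklKO control replicate 6; adjusted p up to 0.116).

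Chka was lower in the knockouts than in WT on control and CD-LFD. The difference was -2.10 (SE 0.402, adjusted p 0.00106) in Ripk3KO and -1.24 (SE 0.389, adjusted p 0.0155) in MlklKO on control. On CD-LFD the values were -2.04 (SE 0.519, adjusted p 0.0353) and -1.55 (SE 0.449, adjusted p 0.0497). On CD-HFD they were -0.77 (SE 0.438, adjusted p 0.654) and -0.44 (SE 0.478, adjusted p 0.769), neither called. These differences went with clock phase. In WT control livers Chka was at 138, 117, 304 and 249 CPM in the 4 libraries of the smaller phase and at 30.8 and 31.4 CPM in the 2 of the larger phase, so 1 group held levels that differed several-fold. Ripk3KO control libraries, all of the larger phase, were at 15.8, 37.4 and 40.4 CPM (lowest, median and highest), and MlklKO control libraries at 37.6, 56.1 and 113. The larger phase did not level the clock ratio. On control that ratio was at -5.792 and -7.879 in the 2 WT libraries, -7.4 to -5.68 in Ripk3KO and -4.96 to -3.67 in MlklKO. Within the larger phase the control-diet difference of Chka was 0.12 (adjusted p 0.93) in Ripk3KO and 1.0 (adjusted p 0.105) in MlklKO. With the clock ratio as a covariate it was -0.17 and 0.00 on control and -0.38 and 0.04 on CD-LFD, none of them called.

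**Figure D3:**
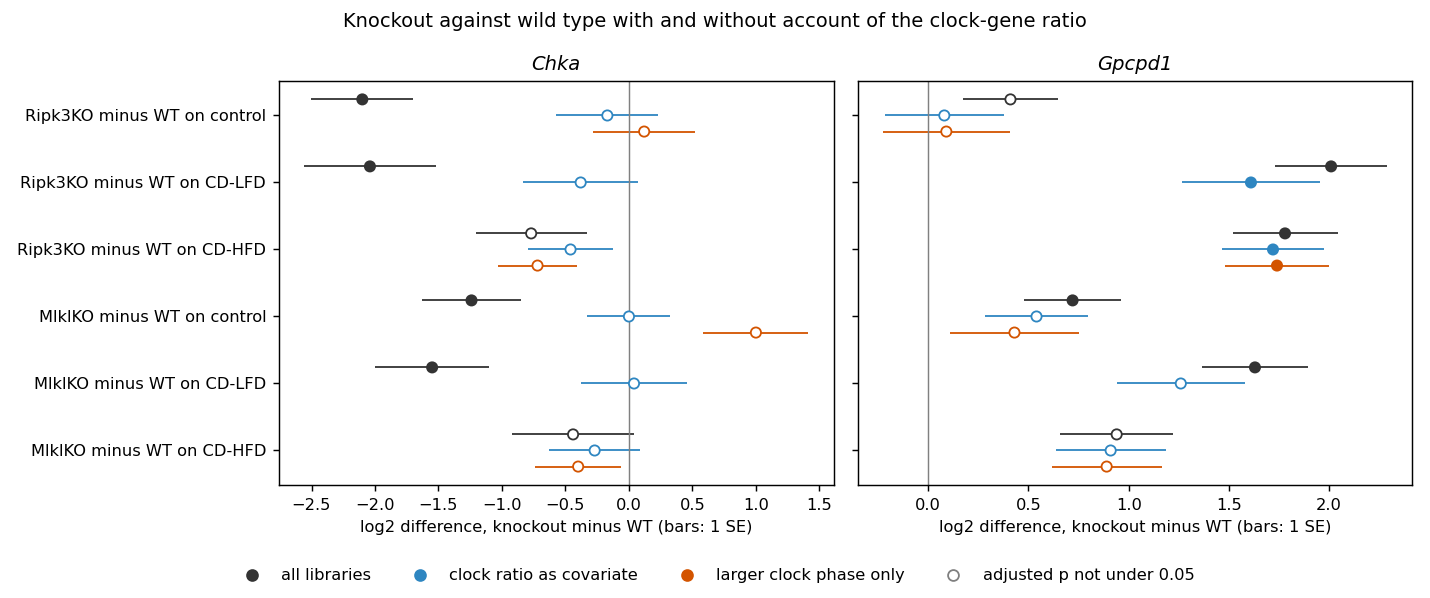
Log2 difference ± 1 SE between each knockout and WT on each diet (rows) for Chka (left) and Gpcpd1 (right), with all libraries, with the clock ratio as a covariate, and within the larger clock phase; open points have an adjusted p of 0.05 or more, and no value exists within the larger phase on CD-LFD. Chka moves from -2.10 to 0.12 for Ripk3KO on control, while Gpcpd1 stays between 1.72 and 1.78 for Ripk3KO on CD-HFD.

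The calls for Chka on CD-LFD were the least firm: that in Ripk3KO was lost without WT CD-LFD replicate 1 or 6 or any 1 Ripk3KO CD-LFD library (adjusted p up to 0.265), and that in MlklKO in 8 of 10 fits (all but those without WT CD-LFD replicate 3 or 4; adjusted p up to 0.196). On control the MlklKO call was lost without WT control replicate 5 or 6 (adjusted p up to 0.0867). Without both, the difference of Chka was -1.25 (adjusted p 0.0669) in Ripk3KO and -0.39 (adjusted p 0.511) in MlklKO. The WT diet change of Chka also differed between the phases. In the smaller phase it was -1.25, with 1 CD-HFD library (replicate 3, 86.0 CPM) below the 4 control libraries of that phase (117 to 304 CPM). CD-HFD libraries of the larger phase were at 51.5, 48.1, 48.8, 43.8 and 129 CPM, above the 2 control libraries of that phase, and the change was 1.10 (SE 0.421, adjusted p 0.034) there, against -1.09 over all libraries. With the clock ratio as a covariate it was 0.36 (SE 0.357, adjusted p 0.431). The all-library call was also lost without WT control replicate 5 or 6 (adjusted p up to 0.103).

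Over all 44 libraries Chka was at 15.8, 42.5 and 129 CPM (lowest, median and highest) in the 33 of the larger phase and at 84.3, 143 and 367 in the 11 of the smaller. Of the 10 members, Chka alone was called for the slope on the clock ratio within groups, against 2.85% of all genes: its log2 level rose by 0.31 per unit of the log2 ratio (SE 0.0547, adjusted p 0.000626) and stayed called in all 44 fits without 1 library. The next were Pemt (-0.06, SE 0.0212, adjusted p 0.0965), Slc44a1 (0.06, SE 0.0254, adjusted p 0.246) and Gpcpd1 (-0.07, SE 0.0379, adjusted p 0.308). The ratio varied most within WT control, from -7.88 to 2.69, against -7.4 to -5.68 in Ripk3KO control and -4.96 to -3.67 in MlklKO control. The slope therefore rests mostly on the WT control libraries, among them replicates 5 and 6. On CD-LFD the ratio was at -2.66 to -0.28 in WT, -7.33 to -6.1 in Ripk3KO and -7.05 to -5.85 in MlklKO. Covariate values on that diet rest on this slope. The labels give no time of collection, so what set the phases was not tested.

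**Figure D4:**
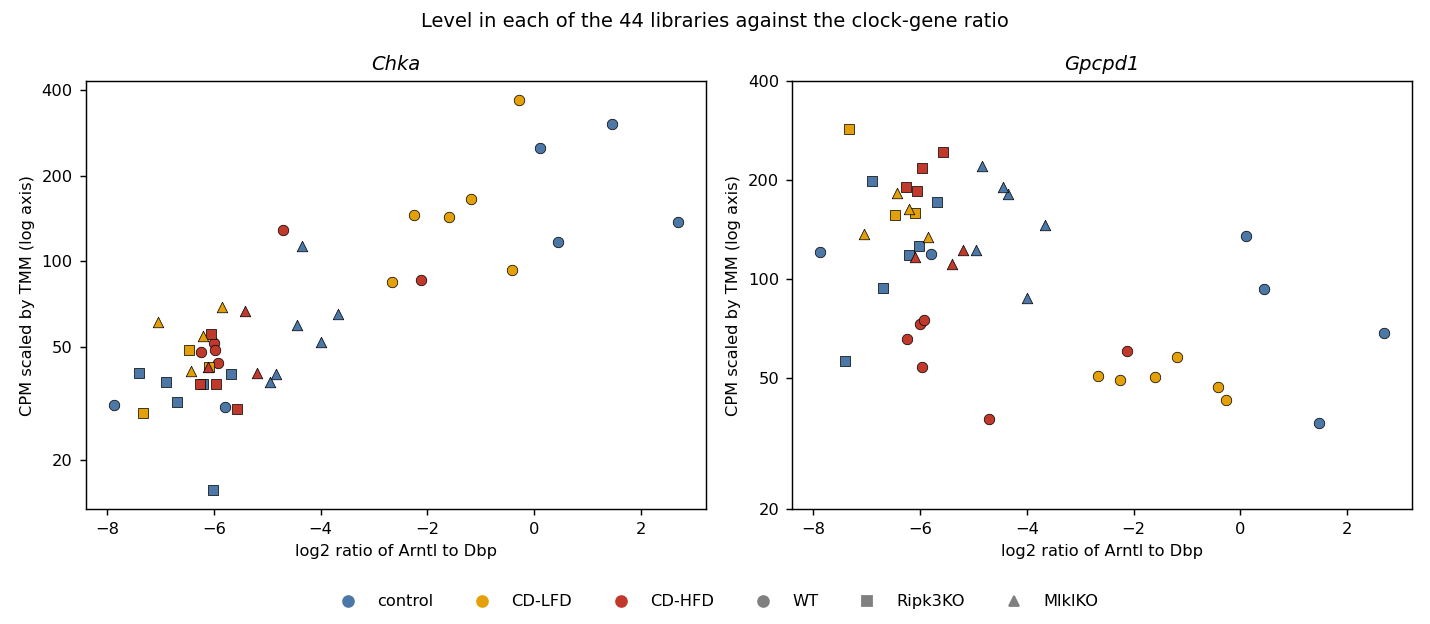
Level of Chka (left) and Gpcpd1 (right) in each of the 44 libraries (CPM scaled by the trimmed mean of M values, log axis) against the log2 ratio of Arntl to Dbp, by diet (colour) and genotype (marker). Chka is at 84.3 CPM or more in the 11 libraries of the smaller phase (right), and Gpcpd1 on CD-HFD is at 111 CPM or more in the knockouts and at most 74.9 in WT.

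Interactions tested whether the diet change itself differed between a knockout and WT. On CD-LFD 0 members passed for Ripk3KO (0.0269% of all genes) and 1 for MlklKO (8.45%), and on CD-HFD 0 passed for Ripk3KO (0.478%) and 0 for MlklKO (4.12%). Before adjustment 2, 4, 2 and 1 members were under 0.05 in that order. The share of all genes under 0.05 before adjustment was not counted, so these are not read as a result about the members. The call was Pemt on CD-LFD in MlklKO, whose change was 0.65 against -0.03 in WT (interaction 0.68, SE 0.218, adjusted p 0.0442). That call for Pemt was lost in 15 of 22 fits without 1 library: without WT control replicate 2 or 4, WT CD-LFD replicate 2, 3, 5 or 6, MlklKO control replicate 1, 2, 3, 4 or 5, or any 1 of the 4 MlklKO CD-LFD libraries (adjusted p up to 0.0864). It was also lost with the clock ratio as a covariate (0.53, adjusted p 0.107). The largest interactions were those of Gpcpd1 in Ripk3KO, with 1.60 for CD-LFD (SE 0.371, adjusted p 0.0924) and 1.36 for CD-HFD (SE 0.355, adjusted p 0.0649). DESeq2 called both, with adjusted p of 0.0147 and 0.019, and without WT control replicate 5 edgeR called both too (1.76 and 1.53, adjusted p 0.0303 and 0.0166), as it did without Ripk3KO control replicate 1 (1.77 and 1.54, adjusted p 0.0206 and 0.0186). In MlklKO the interaction of Gpcpd1 was 0.91 for CD-LFD (SE 0.356, adjusted p 0.101, and 0.0357 without WT control replicate 5) and 0.22 for CD-HFD (SE 0.375, adjusted p 0.821). For Chpt1, Pcyt2 and Cept1 on CD-HFD the interactions were 0.28, 0.03 and -0.06 in Ripk3KO and 0.29, 0.37 and 0.00 in MlklKO, with SEs of 0.157 to 0.341.

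Within WT, replicates 5 and 6 stood apart in several members. Pcyt1a was at 11.9 and 15.2 CPM in them on control against 85.5 to 120.5 in replicates 1 to 4, and at 11.2 to 15.0 against 27.5 to 61.1 on CD-LFD. On CD-HFD they held 15.6 and 31.3 CPM against 25.3 to 47.5, so that the gap was seen on 2 of the 3 diets. Chpt1 was at 104 to 112 against 205 to 279.8 CPM on control and at 78.8 to 91.1 against 145 to 169 on CD-LFD. Chka was highest in the same libraries on control, at 249 to 304 CPM against 30.8 to 138, and Chkb was higher in them on control and CD-LFD. Without replicates 5 and 6 of every WT diet, a choice made after the values were seen, Pcyt1a changed by -1.48 on CD-HFD (adjusted p 5.7e-05) and -1.36 on CD-LFD (adjusted p 0.00057), and Chpt1 by -1.44 (adjusted p 1.9e-09) and -0.56 (adjusted p 0.00575). The labels give no batch that would group these libraries, and what sets them apart was not tested.

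The members fell into patterns across the 9 groups. As a description over 9 group means, with groups of a diet and genotype sharing their conditions, Pemt, Pcyt2, Cept1 and Chpt1 had Pearson correlations of 0.727 to 0.805 with each other. Pcyt1a and Slc44a1 had 0.768, and Chka and Gpcpd1 had -0.752. Chkb and Pcyt1a had -0.741, Pemt and Lpcat3 0.688, and Lpcat3 and Pcyt1a -0.637. Among 10987 genes, those most like Chka over the 9 means were Arntl (0.953), Pnrc1 (0.932) and Prkdc (0.927). Those most like Gpcpd1 were Retreg1 (0.92), Sds (0.917) and Slc22a5 (0.917), and those most like Chpt1 were Amy1 (0.992), Apoh (0.981) and Slco2b1 (0.977). Pcyt2 was most like Gcgr (0.989), Leap2 (0.987) and Atat1 (0.986), and Pcyt1a was most like Riox2 (0.985), Aggf1 (0.984) and Uhmk1 (0.984). Pemt was most like Ss18l2 (0.986), Ndufa12 (0.98) and Ndufc2 (0.972), and Cept1 was most like Zfp410 (0.964), Cyp2a12 (0.962) and Yaf2 (0.956). Slc44a1 was most like Fam168a (0.985), Pdcd7 (0.964) and Pard3b (0.953), Lpcat3 was most like Bcl7a (0.968), Fam20a (0.947) and Rec8 (0.94), and Chkb was most like Taf6l (0.96), Nlrx1 (0.926) and Trmt9b (0.921).

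Of 68 other genes listed for phosphatidylcholine metabolism, 63 were tested (Mboat2, Phospho1, Slc22a2, Slc44a5 and Slc5a7 were not). On CD-HFD in WT 47 of the 63 were called, 20 higher and 27 lower, with a median log2 change of -0.27 against -0.07 for all genes. Of all genes 47.7% were called, 24.1% lower and 23.5% higher, and the counts of the branches below stand against these shares. For the genes named from this comparison the SEs were 0.176 to 0.395 and the adjusted p 0.015 or less, apart from Pcyt1b. All 9 genes of choline oxidation and methyl supply, which feeds the methylation by Pemt, were lower. Their median log2 change was -1.03, beside -0.86 for the hepatocyte markers, of which 8 of 9 were lower, and the part of these was not tested. Of these Gnmt, which uses up S-adenosylmethionine, went from 1636 ± 821 to 362 ± 106 CPM (log2 change -2.17, SE 0.296, adjusted p 7.94e-08). Ahcy, which clears the product of methylation, fell by 1.58 on the log2 scale and Aldh7a1, the betaine aldehyde dehydrogenase, by 1.41. In the ethanolamine route 3 of 6 genes were lower and 0 higher: the ethanolamine kinases Etnk1 (-1.06) and Etnk2 (-0.60) and the phosphotransferase Selenoi (-1.05).

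Other branches had members moving both ways. In this comparison all 10 macrophage markers (median log2 change 3.17), all 6 cholangiocyte markers (3.37) and 7 of 8 stellate cell and fibroblast markers (2.75) were also higher, and their part in the rises was not tested. Of 6 choline transport genes tested 4 were higher and 1 lower, led by Flvcr1 (1.73, 2.32 ± 1.11 to 8.35 ± 1.96 CPM), Slc44a2 (1.43) and Flvcr2 (1.02). Slc44a1 fell in the same livers. Of 11 genes of acyl chain remodelling 6 were higher and 2 lower, with the lysophosphatidylcholine acyltransferases Lpcat2 (2.49), Lpcat4 (2.21) and Lpcat1 (1.57) leading, while Lpcat3 was at -0.39 and not called. Levels of these 3 were low, at 7.05 to 8.85 CPM on CD-HFD. Of 8 genes of transfer and secretion 5 were lower and 2 higher, with Pltp (-1.95), Mttp (-1.59), which loads lipid onto nascent lipoproteins, and Abca1 (-1.16) leading. Of 9 genes of diacylglycerol supply 3 were higher and 3 lower: Gpat3 rose by 2.70 and Gpam and Gpat4 changed by -1.70 and -1.51. Of 13 genes that release choline 4 were higher and 4 lower, led by Gdpd5 (1.55), Pld2 (1.23) and Pnpla8 (-0.81). The other gene of the choline route, Pcyt1b, an isoenzyme of Pcyt1a, is named although its level was under the minimum of the naming rule. It was at 0.131 ± 0.159 CPM on control and 2.44 ± 0.843 on CD-HFD in WT (log2 change 3.92, SE 0.72, adjusted p 1.86e-05), far below the 32.3 ± 12.3 CPM of Pcyt1a.

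On CD-LFD in WT 23 of the 63 were called, 6 higher and 17 lower, against 27.7% of all genes. On CD-HFD 40 of 63 were called in each knockout, 20 higher and 20 lower, against 46.3% in Ripk3KO and 45.2% in MlklKO. Between knockouts and WT on CD-LFD 3 were called in Ripk3KO and 5 in MlklKO, all higher, against 1.1% and 2.56% of all genes. Gde1, a glycerophosphodiester phosphodiesterase, was among them in both: it was at 45.3 ± 10.1 CPM in WT, 86.8 ± 9.07 in Ripk3KO (log2 difference 0.94, adjusted p 0.0132) and 95.2 ± 9.43 in MlklKO (1.07, adjusted p 0.000692), the direction of Gpcpd1 on that diet. Etnk2 (1.02 and 1.17) and Mat1a (0.85 and 0.96), which makes S-adenosylmethionine, were higher in both knockouts too, and in MlklKO Ahcy (1.22) and Lpin1 (1.73), a phosphatidate phosphatase. The summed hepatocyte markers on CD-LFD were at 81038 to 138936 CPM in Ripk3KO and 129708 to 136674 in MlklKO, against 65775 to 112607 in WT. Their part was not tested. The adjusted p of the named pathway genes on CD-LFD was 0.0411 or less. All WT libraries of this diet were of the smaller clock phase, so phase and genotype cannot be told apart for them within a phase; with the clock ratio as a covariate the genes called over the whole table went from 164 to 11 in Ripk3KO and from 381 to 18 in MlklKO. On control Gde1 (0.68, SE 0.178, adjusted p 0.0191) and Lcat (0.51, SE 0.122, adjusted p 0.0112), which esterifies plasma cholesterol with an acyl chain of phosphatidylcholine, were higher in Ripk3KO, and in MlklKO 14 of the 63 were called, 5 higher and 9 lower, where 27.1% of all genes were called. Those with the largest differences there were Lpin1 (1.87, SE 0.454, adjusted p 0.00202), Lpcat4 (-1.65, SE 0.491, adjusted p 0.011) and Flvcr1 (1.38, SE 0.255, adjusted p 0.000106). The others named by the rule in MlklKO on control were Abca1 (1.13), Gpam (-1.07), Gpat3 (1.01), Etnk1 (0.94), Pla2g15 (-0.94), Pctp (-0.90), Slc44a2 (-0.85), Ptdss2 (-0.48), Pla2g6 (-0.44) and Bhmt2 (-0.44), whose adjusted p reached 0.0374 at most. Since 4 of the 6 WT control libraries were of the smaller clock phase, these control-diet differences stand beside the same limit: within the larger phase the genes called over the whole table went from 665 to 139 in Ripk3KO and from 4029 to 1905 in MlklKO. The clock ratio of MlklKO control still differed from that of WT control within that phase. On CD-HFD 0 of the 63 were called between either knockout and WT by edgeR, against 0.377% and 0.0% of all genes.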

How the data were processed

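RNA from mouse liver was sequenced in 44 libraries of 9 groups. The deposited table holds raw gene counts, which the authors made with STAR and HTSeq on GRCm39 (mm39), per the submitters' processing notes; versions, annotation release and strand setting are not given in the sources used here. Genes passing filterByExpr (minimum count 10; 14862 genes with 99.8% of counts) were fitted in all 44 libraries with edgeR 4.0.16 (R 4.3.3, limma 3.58.1): trimmed-mean scaling (factors 0.799 to 1.34), quasi-likelihood F test, 19 contrasts, Benjamini-Hochberg adjustment over all tested genes, threshold 0.05. SEs were derived from the log2 change and F. DESeq2 1.42.0 served as an alternative. The scripts were tested on simulated data. The members and gene lists were chosen with earlier results of these data known. The genes named from the other pathway lists were, by rule, up to 3 called genes per list with the largest changes, at a mean log2 CPM of at least 1. The clock ratio is log2 Arntl minus log2 Dbp. None of the 93 pairs of libraries within a group agreed within sampling noise (chi-square per degree of freedom 7.26 to 117). Gene overlaps were taken from GENCODE M21, promoter windows and gene starts from RefSeq (GRCm38.p6). Precision is limited by 3 to 6 libraries per group. Replicate numbers were not taken to pair libraries, since over 146 same-numbered pairs of all genotypes the median correlation of deviations was -0.011 (-0.349 to 0.545), although WT replicates 5 and 6 stood apart in some members on 2 diets.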

Additional observations from a re-analysis of the deposited data

Results flagged for a closer look

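In 70 sets of 4 to 6 libraries of a group, 1 member each, the highest or lowest library was tested for its gap to the rest, and 6 sets had such a library, where chance gives about 1 in 20 (3.5). Chka gave 3 of them: 367 CPM in WT CD-LFD replicate 6 (the other 5 were at 84.3 to 165), 15.8 CPM in Ripk3KO control replicate 5 (the others 32.1 to 40.4) and 113 CPM in MlklKO control replicate 1 (the others 37.6 to 65.5). The library labelled Ripk3KO control replicate 5 also held the most Ripk3 counts of its group. Chkb stood at 2.63 CPM in MlklKO CD-LFD replicate 1 (the others 1.28 to 1.49), Chpt1 at 208 CPM in MlklKO control replicate 6 (the others 161 to 174) and Slc44a1 at 26.2 CPM in Ripk3KO CD-HFD replicate 3 (the others 31 to 31.1).

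The change of Pemt on CD-LFD differed between MlklKO and WT by 0.68 on the log2 scale (edgeR adjusted p 0.0442). All 4 MlklKO CD-LFD libraries (355 to 412 CPM) lay above all 6 MlklKO control libraries (221 to 258), while the WT ranges of 210.3 to 381 and 220.4 to 397 overlapped.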

How the results depend on the processing

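With library size alone the members called went from 8 to 2 for WT CD-HFD against control, 5 to 2 for WT CD-HFD against CD-LFD, 5 to 2 and 4 to 2 for CD-HFD against control in Ripk3KO and MlklKO, 2 to 1 and 4 to 2 for CD-HFD against CD-LFD in them, 0 to 1 for the Ripk3KO interaction with CD-HFD and 1 to 0 for the MlklKO interaction with CD-LFD. There the CD-HFD changes turned to 0.12 (Pemt, WT), 0.15, 0.14 and 0.20 (Cept1 in WT, Ripk3KO and MlklKO) and 0.10 (Gpcpd1, MlklKO), and that of Gpcpd1 on CD-LFD in MlklKO to 0.11. Size factors of DESeq2 type gave 1 for Ripk3KO CD-LFD against control, 1 for Ripk3KO CD-HFD against CD-LFD and 2 for MlklKO CD-HFD against control. Without the count filter these were 0, 1 and 2, WT CD-HFD against CD-LFD gave 3, the Ripk3KO interactions 1 each and the MlklKO interaction with CD-LFD 0. The robust fit gave 1 for MlklKO against WT on CD-LFD. The replicate block gave 1 there and 0 for the MlklKO interaction with CD-LFD, and no other count of calls moved by over 1.5 times; the replicate numbers were not taken to pair the libraries (42 of 146 same-numbered pairs correlated over 0.1).

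With the clock ratio as a covariate WT CD-HFD against CD-LFD gave 2, Ripk3KO against WT 0 on control and 1 on CD-LFD, MlklKO against WT 2 and 0, and the interactions of Ripk3KO with CD-HFD and MlklKO with CD-LFD 1 and 0. Within the larger phase Ripk3KO against WT gave 0 on control and 2 on CD-HFD, MlklKO against WT on control 1 and the Ripk3KO interaction with CD-HFD 1. Chka turned to 0.36 (covariate) and 1.10 (larger phase) for WT CD-HFD against control, to 0.12 and 1.0 for Ripk3KO and MlklKO against WT on control (larger phase) and to 0.04 for MlklKO against WT on CD-LFD (covariate). Within the smaller phase, which holds only WT libraries, CD-LFD against control gave 0 (6 against 4 libraries), and CD-HFD gave 1 against control and 0 against CD-LFD, where its only library is assumed to vary like the others, so that these say little about stability. Without the libraries labelled Ripk3KO control replicate 5 and MlklKO CD-HFD replicate 1, Ripk3KO CD-LFD against control gave 0, CD-HFD against CD-LFD 1, MlklKO against WT on CD-LFD 1 and its interaction 0. Without WT control replicates 5 and 6 Ripk3KO CD-LFD against control gave 4, the knockouts against WT on control 0 and 1, the Ripk3KO interactions 1 each and the MlklKO interaction with CD-LFD 2. Without replicates 5 and 6 of every WT diet these gave 5 for Ripk3KO CD-LFD against control and 1 for each knockout against WT on CD-LFD. With only the compared groups WT CD-HFD and CD-LFD against control gave 3 and 2, MlklKO CD-HFD against CD-LFD 7, the knockouts against WT on control 0 and 0 and the MlklKO interaction with CD-LFD 0. DESeq2 gave 1 for Ripk3KO CD-HFD against CD-LFD and 1 for each Ripk3KO interaction. The causes were not tested.

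Leaving out 1 library at a time gave 3 to 6 members for WT CD-HFD against CD-LFD, 0 to 4 and 1 to 2 for Ripk3KO CD-LFD against control and CD-HFD against CD-LFD, 2 to 4 for MlklKO CD-HFD against control, 1 to 2 for each knockout against WT on CD-LFD, 2 to 5 for MlklKO against WT on control, 0 to 1 for each Ripk3KO interaction and 0 to 2 for the MlklKO interaction with CD-LFD. Gpcpd1 ranged from -0.08 to 0.40 for Ripk3KO CD-HFD against CD-LFD (below 0 without Ripk3KO CD-LFD replicate 1 or 3 or CD-HFD replicate 5) and from -0.16 to 0.08 for MlklKO CD-LFD against control (above 0 without MlklKO control replicate 2 or 4 or CD-LFD replicate 1 or 4). Chkb, with 4 to 123 counts per library, is the member that depth limits most.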
